A study of Mus musculus with 16 samples.

Results

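The enzymes that move amino groups onto and off glutamate in liver, and the cytosolic malate dehydrogenase that works beside them, were followed at the transcript level in 16 obese mice treated with a glucagon receptor agonist on diets of different protein content. The group comprised 6 genes listed by name: Got1, Gpt and Mdh1, whose products are cytosolic, and Got2, Gpt2 and Glud1, whose products are mitochondrial. Each symbol was matched through the mouse GRCm38 annotation to 1 of the 55487 genes in the expression table, and all 6 were among the 11839 genes whose mean TPM was at least 1. TPM counts the reads of a gene per exon length and scales every library to the same total.

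The mice were male C57BL6/J animals made obese on a 60 kcal% fat diet, housed singly, and then kept on a high-fat diet with a standard protein content (SP) or a high protein content (HP). They received vehicle or G108, a long-acting peptide agonist of the glucagon receptor, subcutaneously at 2.5 nmol/kg each morning for 22 days, and livers were frozen after a 4 h fast. The 4 groups of 4 mice were SP and HP with vehicle (vehicle SP, vehicle HP) and SP and HP with G108 (G108 SP, G108 HP), and each library came from the liver of 1 mouse. The sample labels gave an age of 10 weeks at the start of high-fat feeding, 8 weeks of that feeding and a cull on day 25. The methods of the study gave a younger age and an earlier day of cull. They gave a shorter period on the 60 kcal% fat diet, then a further period on SP or HP, also high in fat, before dosing. Whether the 8 weeks of the labels take in both periods was not stated. There was no lean group and no other tissue.

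Aminotransferases pass the amino group of an amino acid to 2-oxoglutarate and so make glutamate and an oxo acid. Alanine aminotransferase gives pyruvate and aspartate aminotransferase gives oxaloacetate, and both are precursors of glucose in the fasted liver. Glutamate dehydrogenase releases the collected nitrogen as ammonia inside mitochondria, and aspartate carries a further nitrogen into the urea cycle. The aspartate aminotransferases and malate dehydrogenases of both compartments also make up the malate-aspartate shuttle, which carries reducing equivalents across the inner mitochondrial membrane. Glucagon drives hepatic amino acid catabolism and gluconeogenesis through cyclic AMP.

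Levels are given as scaled TPM, the deposited TPM divided by 1 factor per library set at the median ratio over 11591 genes. A few abundant transcripts took different shares of each library. Major urinary protein (Mup) genes held a mean of 45.7% of all TPM in vehicle SP, 39.9% in vehicle HP, 21.0% in G108 SP and 24.4% in G108 HP. Transcripts of the mitochondrial genome held 17.5%, 17.7%, 18.9% and 26.7%, respectively. On TPM as deposited the median gene was 0.60 higher on the log2 scale with G108 on SP, against -0.01 after scaling. Depth recovered from the steps in the TPM values was 27.8 to 45.0 M assigned reads per library, with the vehicle SP median at 40.4 M and the G108 SP median at 29.7 M. The members drew 1683 to 24822 reads in a library, so that counting error was at most 2.44%, whereas the coefficient of variation between mice of a group was 5.12% to 52.7%.

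The libraries carried hepatocyte markers throughout. The 4 hepatocyte markers matched here (4 of 5 listed) summed to 13190 to 24970 deposited TPM in vehicle SP, 17480 to 23350 in vehicle HP, 23460 to 35010 in G108 SP and 14920 to 23860 in G108 HP. Markers of other tissues rich in these enzymes were near 0. None of 5 skeletal muscle markers had a mean of 1 TPM, and their sum was 0.227 to 0.774 TPM in vehicle SP, 0.248 to 0.702 in vehicle HP, 0.668 to 1.01 in G108 SP and 0.267 to 1.41 in G108 HP. None of 3 kidney markers reached 1 TPM either, and their sum did not exceed 0.0619 TPM. In whole liver a change in the number of cells of a type and a change in RNA per cell cannot be told apart.

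Got1 encodes cytosolic aspartate aminotransferase, the form that takes aspartate to oxaloacetate outside mitochondria. It lies on chromosome 19 (GRCm38, 43499752 to 43524605, minus strand; ENSMUSG00000025190). It was the member with the widest range of group means, a 4.47-fold span, while the other 5 members spanned 1.15-fold to 1.28-fold. In vehicle SP the 4 mice had 73.2, 40.1, 29.0 and 24.6 scaled TPM. Vehicle HP mice had 103, 92.9, 93.1 and 69.1, G108 SP mice had 136, 204, 206 and 199 and G108 HP mice had 151, 146, 144 and 229. Every G108-treated mouse, on either diet, was above every vehicle-treated mouse, and the share of all genes with this pattern was not counted. The vehicle groups overlapped through 1 mouse, vehicle SP mouse 1 at 73.2 against vehicle HP mouse 4 at 69.1.

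The group means of Got1 were 41.7 ± 22.0 (SD, n = 4) in vehicle SP, 89.5 ± 14.3 in vehicle HP, 168 ± 40.9 in G108 HP and 186 ± 33.4 in G108 SP, in that order. Got1 rose with G108 on SP by 2.24 on the log2 scale (SE 0.28, 95% interval 1.65 to 2.83, 4.73-fold), with a limma adjusted p of 0.00048 over all genes tested. It was the only one of the 6 members to pass the test there, and 322 of all genes tested passed (2.72%), 158 of them higher (1.33%). On HP the difference was 0.88 (0.29 to 1.47, 1.85-fold) and did not pass the test (limma adjusted p = 0.173). None of the 6 members passed on HP, where 1.22% of all genes did, 0.642% in the higher direction. Genes with 4 G108 mice all above the 4 vehicle mice made up 4.52% of those tested on SP and 4.2% on HP.

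The 2 vehicle diets differed in Got1 by 1.196 on the log2 scale (0.61 to 1.79, 2.29-fold), higher on HP, which did not hold after adjustment over all genes (limma adjusted p = 0.758). The 2 neighbouring groups at the top, G108 HP and G108 SP, differed by -0.16 (-0.75 to 0.43, adjusted p = 0.897 with limma), which was within their spread. The change in the G108 difference between diets was -1.36 (-2.19 to -0.52, limma adjusted p = 0.575), so a smaller difference on HP than on SP did not pass the test. None of the 11839 genes passed in either diet comparison or in the interaction (0% in each). At an unadjusted limma p under 0.05 there were 466 genes (3.94%) for diet with vehicle, 639 (5.4%) for diet with G108 and 855 (7.22%) for the interaction. Adjusted calls depended on the fit. Voom on recovered reads gave 0 in all 3, while array quality weights gave 297 genes (2.51%) for diet with G108. Other settings gave at most 2 genes. The study, which used DESeq2, reported a few genes that differed by diet with G108, many of them mitochondrial or Mup transcripts. Among the members only Got1 reached an unadjusted p under 0.05 for diet with vehicle and for the interaction, and none did for diet with G108.

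Comparisons across both factors use the same group means of Got1, so their direction adds nothing to the order above. G108 HP against vehicle SP differed by 2.08 on the log2 scale (limma adjusted p = 0.00202, with 2.83% of all genes passing), and G108 SP against vehicle HP by 1.05 (adjusted p = 0.104, with 1.02% passing). The groups did not overlap in either, as was so in the same direction for 4.1% and 4.24% of all genes.

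**Figure D1:**
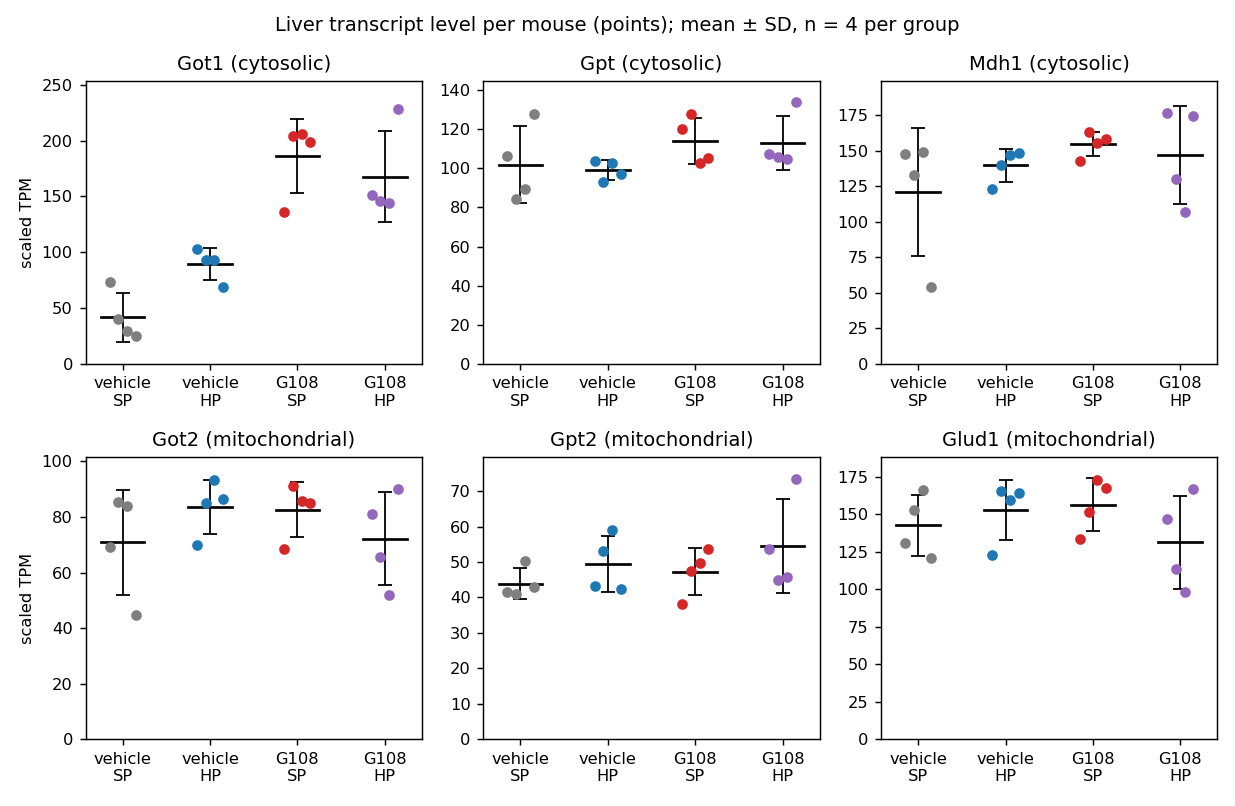
Scaled TPM of the 6 members in each of 16 livers, by group; points are mice, bars are the mean ± SD of 4 mice, and every axis starts at 0. Got1 is the panel in which all 8 G108-treated mice, at 136 to 229, sit above all 8 vehicle-treated mice, at 24.6 to 103. The share of all genes with this pattern was not counted.

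Got2, the mitochondrial aspartate aminotransferase, catalyses the same reaction as Got1 in the matrix. It lies on chromosome 8 (95864134 to 95888547, minus strand; ENSMUSG00000031672). The 4 mice had 69.3, 85.4, 84.0 and 44.8 scaled TPM in vehicle SP, 69.9, 85.0, 93.3 and 86.4 in vehicle HP, 68.5, 91.2, 85.9 and 85.1 in G108 SP and 81.1, 65.6, 52.1 and 90.0 in G108 HP. The 4 groups overlapped throughout, and the lowest value of vehicle SP, 44.8 in mouse 4, was the lowest of all 16. The G108 difference was 0.26 on SP (-0.18 to 0.69, limma adjusted p = 0.500) and -0.23 on HP (-0.66 to 0.20, adjusted p = 0.764). A transcript of uncertain coding status on the opposite strand, Gm45760, shares 434 exonic bases with Got2 and had a mean of 43.5 TPM, and reads in that stretch could have been counted for either gene or for neither.

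Because both aspartate aminotransferases were measured in every library, their ratio does not depend on how libraries are scaled. Got1 over Got2 was 0.606 ± 0.312 (SD, n = 4) in vehicle SP, 1.09 ± 0.281 in vehicle HP, 2.24 ± 0.180 in G108 SP and 2.35 ± 0.390 in G108 HP. Put as a share, Got1 made up a mean of 36.1% of the pair in vehicle SP and 51.5% in vehicle HP, against 69.1% and 69.8% in the G108 groups. On SP the ratio was 4.03-fold higher with G108 (log2 difference 2.01) and on HP 2.18-fold (1.13), and on both diets no G108 mouse overlapped a vehicle mouse. Each of these had p = 0.0286 in a two-sided exact permutation test, the smallest that 4 against 4 mice allow, and an adjusted p of 0.214 over the 15 ratio tests made, so neither passed. Diet changed the log2 ratio by 0.06 with G108 (exact permutation p = 0.714) and by 0.94 with vehicle (p = 0.0857, adjusted p = 0.321), and the interaction was -0.89 (p = 0.360).

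**Figure D2:**
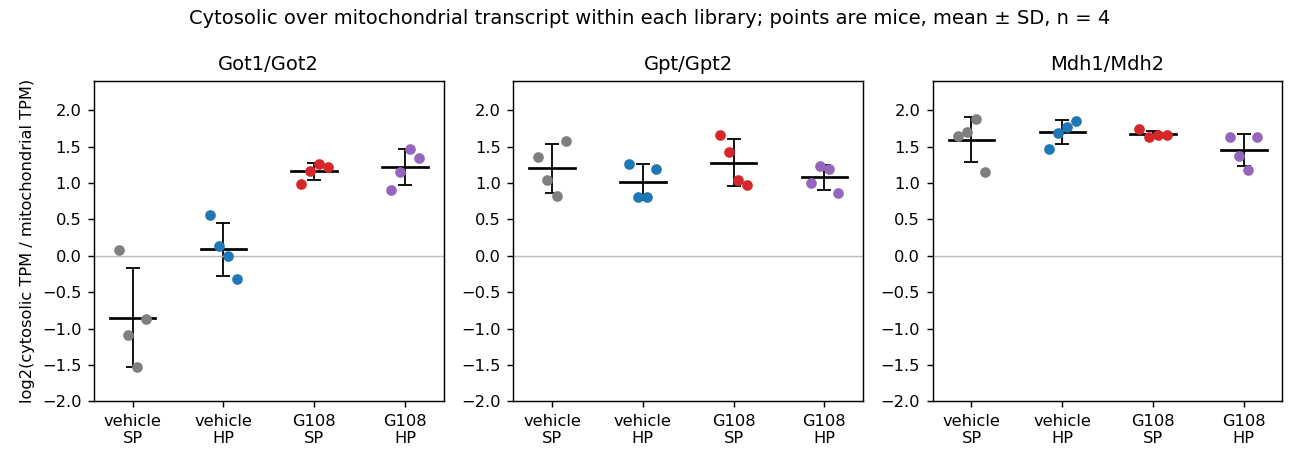
Cytosolic over mitochondrial transcript within each library, as log2 of the TPM ratio, for the aspartate aminotransferases, the alanine aminotransferases and the malate dehydrogenases; points are mice and bars are the mean ± SD of 4 mice. The Got1/Got2 panel runs from means of -0.85 in vehicle SP and 0.09 in vehicle HP to 1.16 in G108 SP and 1.22 in G108 HP, while the group means of the other panels lie between 1.02 and 1.69.

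The promoters of these paralogues are shown because one of the pair rose on SP and the other did not pass the test. Each is the RefSeq stretch from 250 bases before the transcription start to 50 bases after it (GRCm38.p6, gene strand, 5′ to 3′), Got1 at chr19:43524556-43524855 and Got2 at chr8:95888352-95888651. Capitals mark the match to a searched motif.
Got1: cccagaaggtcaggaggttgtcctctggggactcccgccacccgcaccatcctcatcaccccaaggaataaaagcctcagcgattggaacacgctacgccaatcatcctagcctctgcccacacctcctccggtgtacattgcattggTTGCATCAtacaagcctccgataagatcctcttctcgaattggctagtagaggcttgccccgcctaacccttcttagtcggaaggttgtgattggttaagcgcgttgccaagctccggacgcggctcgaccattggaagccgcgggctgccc
Got2: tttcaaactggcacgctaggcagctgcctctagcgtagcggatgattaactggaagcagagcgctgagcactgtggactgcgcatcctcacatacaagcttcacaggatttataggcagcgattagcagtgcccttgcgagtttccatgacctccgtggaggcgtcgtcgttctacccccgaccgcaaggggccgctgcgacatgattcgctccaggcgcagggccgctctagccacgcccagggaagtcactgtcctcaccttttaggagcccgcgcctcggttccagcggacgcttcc
The motifs searched on both strands were the cyclic AMP response element TGACGTCA, its shortened form TGACG, which the longer one contains, and TGATGCAA, a composite element known to be bound by C/EBP and ATF family factors. Promoters were on hand for 5 of the 6 members. The single match was TGATGCAA in Got1, on the minus strand, its first base being base 149 of the 300. Among 32851 RefSeq promoters of the same length, 0.895% held TGATGCAA, 1.79% held TGACGTCA and 20.8% held TGACG. A match describes letters in the window and was not tested as a site.

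Gpt, the cytosolic alanine aminotransferase measured in plasma as a sign of liver injury, lies on chromosome 15 (76695716 to 76699686, plus strand; ENSMUSG00000022546). The 4 mice had 107, 84.1, 89.4 and 128 scaled TPM in vehicle SP, 104, 93.1, 103 and 97.3 in vehicle HP, 120, 128, 103 and 105 in G108 SP and 107.5, 106, 105 and 134 in G108 HP. On HP all G108 mice were above all vehicle mice, as was so for 4.2% of all genes tested. The margin at the edge was narrow, 105 against 104. The difference was 0.17 on SP (-0.11 to 0.46, limma adjusted p = 0.485) and 0.18 on HP (-0.10 to 0.46, adjusted p = 0.700). Both intervals left out a rise of the size of Got1 on SP.

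Gpt2, the mitochondrial alanine aminotransferase, lies on chromosome 8 (85492576 to 85527560, plus strand; ENSMUSG00000031700). Its 4 mice had 41.5, 40.9, 50.3 and 43.0 scaled TPM in vehicle SP, 43.4, 53.1, 59.0 and 42.5 in vehicle HP, 38.0, 47.5, 49.8 and 53.6 in G108 SP and 53.6, 44.9, 45.7 and 73.4 in G108 HP. All groups overlapped, with 1 high mouse in G108 HP. Its difference with G108 was 0.10 on SP (-0.25 to 0.44, limma adjusted p = 0.751) and 0.12 on HP (-0.23 to 0.46, adjusted p = 0.861). The ratio of Gpt to Gpt2 was 2.34 ± 0.532 (SD, n = 4) in vehicle SP, 2.04 ± 0.346 in vehicle HP, 2.47 ± 0.561 in G108 SP and 2.12 ± 0.249 in G108 HP. By TPM, a level per exon length, the Gpt transcript exceeded the Gpt2 transcript in every liver, though in recovered reads Gpt2 was the higher in some. The 5 ratio tests gave exact permutation p from 0.343 to 0.943.

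Mdh1 encodes cytosolic malate dehydrogenase, which interconverts malate and oxaloacetate beside Got1, and lies on chromosome 11 (21556787 to 21572367, minus strand; ENSMUSG00000020321). The 4 mice had 148, 133, 149 and 54.2 scaled TPM in vehicle SP, 123, 140, 147 and 149 in vehicle HP, 143, 163, 155 and 158 in G108 SP and 177, 130, 107 and 175 in G108 HP. One vehicle SP liver, mouse 4, was far below the other 15. The difference was 0.46 on SP (-0.10 to 1.02, limma adjusted p = 0.366) and 0.05 on HP (-0.51 to 0.61, adjusted p = 0.972). Without vehicle SP mouse 4 the SP value was 0.11 (adjusted p = 0.812). That library had the steepest dependence of level on GC content (0.0844 on the log2 scale for each 10 points of GC, the lowest library being -0.0777). Mdh1 is low in GC (45.7%, the 26.6th percentile of genes tested) where Gpt is high (59.0%, the 92.0th). Got1 (52.3%, the 60.4th) and Got2 (54.5%, the 72.7th) also had their lowest value of all libraries in that mouse, at 24.6 and 44.8 scaled TPM. In a fit that took up this slope as a covariate, an alternative chosen after seeing the data, Mdh1 on SP was 0.66, against 0.46 without it. Its limma adjusted p was 0.0240, and that fit passed 14.6% of all genes against 2.72%. Whether GC content accounts for the low Mdh1 value of vehicle SP mouse 4 was not tested.

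Mdh2, the mitochondrial malate dehydrogenase and not itself one of the 6, was read beside Mdh1 to complete the pair. Its means were 38.2 ± 9.73 scaled TPM (SD, n = 4) in vehicle SP, 43.0 ± 1.40 in vehicle HP, 48.7 ± 4.17 in G108 SP and 52.8 ± 4.79 in G108 HP. It differed with G108 by 0.38 on SP (0.05 to 0.71, limma adjusted p = 0.227) and 0.29 on HP (-0.05 to 0.62, adjusted p = 0.543). The ratio of Mdh1 to Mdh2 was 3.07 ± 0.607, 3.25 ± 0.359, 3.19 ± 0.101 and 2.76 ± 0.412 (SD, n = 4) in the same order. Its 5 exact permutation tests gave p from 0.0571 to 0.800, the lowest for G108 HP against G108 SP, where the log2 difference was -0.22 (adjusted p = 0.286).

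Glud1, glutamate dehydrogenase, lies on chromosome 14 (34310727 to 34345265, plus strand; ENSMUSG00000021794). With Mdh1 it was among the more abundant of the 6 by mean TPM over all libraries, which is a level per length. In G108 SP and G108 HP the mean of Got1 (186 and 168 scaled TPM) was above those of Glud1 (156 and 131) and Mdh1 (155 and 147). For Glud1 the 4 mice had 131, 153, 166 and 121 scaled TPM in vehicle SP, 123, 165, 159 and 164 in vehicle HP, 134, 151, 173 and 167 in G108 SP and 147, 113, 98.5 and 167 in G108 HP. G108 HP held both the lowest value and 1 of the highest, and no groups were apart. The difference was 0.13 on SP (-0.22 to 0.49, limma adjusted p = 0.671), -0.24 on HP (-0.59 to 0.12, adjusted p = 0.679) and -0.27 between G108 HP and G108 SP (-0.63 to 0.08, adjusted p = 0.858).

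Set by compartment, 1 of 3 cytosolic members and 0 of 3 mitochondrial members passed the test for G108 on SP, where 2.72% of all genes did. The cytosolic log2 differences ran from 0.17 to 2.24 with a median of 0.46, and the mitochondrial ones from 0.10 to 0.26 with a median of 0.13, beside -0.01 for all genes tested. On HP the cytosolic median was 0.18 (0.05 to 0.88) and the mitochondrial median -0.23 (-0.24 to 0.12), beside 0.00 for all genes. The cytosolic call was Got1, and no difference between compartments was tested beyond the 3 ratios. Of the summed scaled TPM of the 6 genes, Got1 took 7.84% ± 3.49 (SD, n = 4) in vehicle SP, 14.6% ± 2.78 in vehicle HP, 25.0% ± 2.45 in G108 SP and 24.4% ± 2.43 in G108 HP.

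The scale of the values decided how many members passed on SP. On TPM as deposited all 6 were higher with G108 on SP, but so were 77% of all genes tested (77.6% passed in either direction), so the count said nothing particular to the 6. The deposited log2 differences were 3.01 for Got1, 1.23 for Mdh1, 1.02 for Got2, 0.94 for Gpt, 0.91 for Glud1 and 0.86 for Gpt2, beside a median of 0.60 for all genes. On HP none of the 6 passed as deposited (1.11% of all genes did), with Got1 at 1.01 (limma adjusted p = 0.192). The vehicle diets did not overlap in deposited Got1, with means of 33.1 and 82.8 TPM, as was so for 1.33% of all genes, although they did after scaling.

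**Figure D3:**
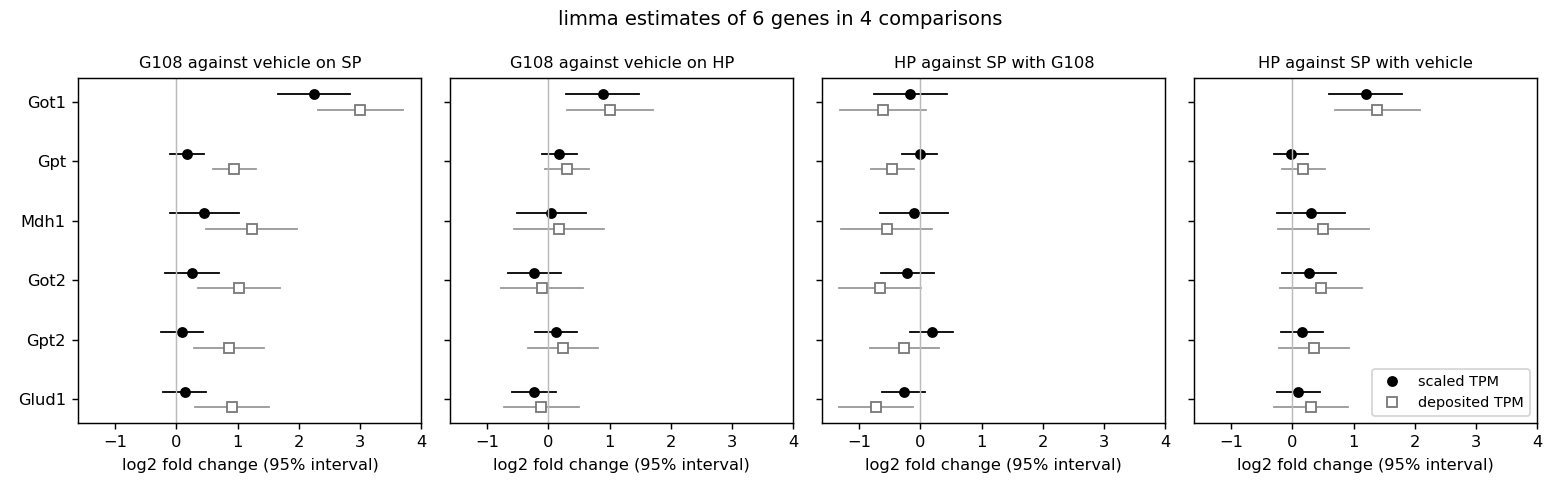
limma log2 fold changes with 95% intervals for the 6 members in 4 comparisons, from scaled TPM (filled circles) and TPM as deposited (open squares). On SP the deposited estimates lie to the right of the scaled ones for every member, and Got1 at 2.24 (scaled) stands apart from the others at 0.10 to 0.46.

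Around these enzymes, 4 lists of genes of the same pathways were read with the same fit. The lists were chosen with earlier results of these data known. Their counts beside the share of all genes are therefore descriptions and no test of the pathways. One list held genes of the malate-aspartate and glycerol phosphate shuttles together with mitochondrial glutamate carriers. Of its 7 tested genes (9 listed), 1 passed on SP (2.72% of all genes) and none on HP (1.22%), with median differences of 0.38 and -0.09. The gene that passed was Slc25a22, a mitochondrial glutamate carrier that is not part of either shuttle. It rose by 0.99 on SP (limma adjusted p = 0.0217), from 32.2 ± 11.3 to 62.1 ± 4.57 scaled TPM (SD, n = 4), and stood at 0.76 on HP (adjusted p = 0.125). The aspartate-glutamate carriers Slc25a12 and Slc25a13 and the oxoglutarate carrier Slc25a11, which complete the malate-aspartate shuttle, did not pass on either diet.

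Of 4 tested genes of glutamate and ammonia handling (5 listed), 1 passed on SP (2.72% of all genes) and none on HP (1.22%), with medians of 0.78 and 0.18. Gls2, the liver glutaminase that frees ammonia from glutamine, was 1.23 higher with G108 on SP, on the log2 scale (limma adjusted p = 0.00186), and stood at 0.76 on HP (adjusted p = 0.0589). Its means were 77.3 ± 25.4 scaled TPM (SD, n = 4) in vehicle SP, 107 ± 15.5 in vehicle HP, 177 ± 20.2 in G108 SP and 182 ± 22.3 in G108 HP.

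Of 9 other aminotransferase genes tested (11 listed), 2 passed on SP (2.72% of all genes) and 1 on HP (1.22%), with medians of 0.31 and 0.18. Tat, the tyrosine aminotransferase long used as a marker of hormonal induction in liver, was higher with G108 by 1.75 on SP and 1.40 on HP (limma adjusted p = 0.00633 and 0.0408). Leaving mitochondrial and Mup genes out of the scaling gave Tat 1.32 on HP with an adjusted p of 0.0532, so that its call, and with it the count of 1 on HP, was lost there. Oat, ornithine aminotransferase, had risen by 1.28 on SP (adjusted p = 0.00497 with limma) and stood at 0.62 on HP (adjusted p = 0.235). Of 6 tested genes that make or use oxaloacetate and pyruvate (7 listed), 2 passed on SP (2.72% of all genes) and none on HP (1.22%), with medians of 0.07 and 0.03. Pck1, which takes oxaloacetate towards glucose, rose by 1.70 (limma adjusted p = 0.0243) and Sds, serine dehydratase, by 1.19 (adjusted p = 0.0413), both on SP. On HP they stood at 1.17 and 1.02 without passing (adjusted p = 0.191 and 0.128).

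No gene of the 4 lists passed in the lower direction for G108 on either diet, where 164 of the 11839 genes tested did so on SP and 69 on HP. None passed in a diet comparison or in the interaction, nor did any other gene tested. On TPM as deposited the 4 lists had 6, 4, 9 and 5 genes passing on SP, against the 77.6% of all genes noted above, and 1, 0, 1 and 1 on HP.

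**Figure D4:**
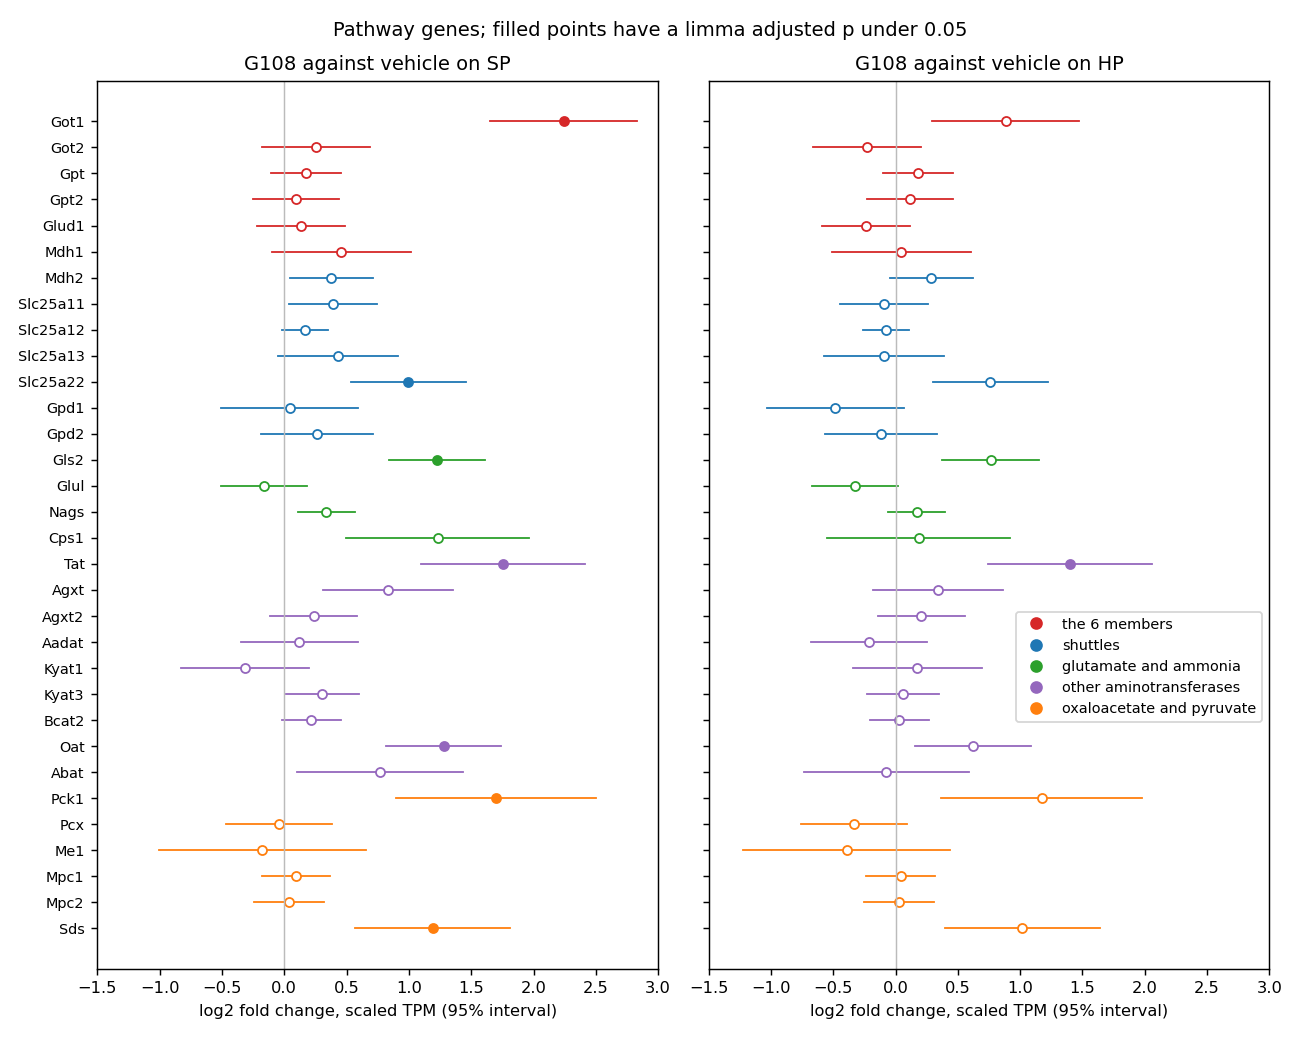
limma log2 fold changes of scaled TPM with 95% intervals for G108 against vehicle on SP (left) and on HP (right), for the 6 members and the tested genes of 4 pathway lists, coloured by list; filled points have an adjusted p under 0.05. On SP 7 points are filled, led by Got1 at 2.24, Tat at 1.75 and Pck1 at 1.70, and on HP the single filled point is Tat at 1.40, whose call was lost (adjusted p = 0.0532) without mitochondrial and Mup genes in the scaling.

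The genes whose levels followed Got1 most closely over the 16 libraries, by Pearson r of scaled log2 values, were Gls2 (r = 0.973), Slc25a15, the mitochondrial ornithine carrier (0.970), and Slc7a2, a cationic amino acid transporter (0.969). Within groups, after taking out group means, the same r were 0.910, 0.851 and 0.939. Slc25a15 had means of 22.5, 33.7, 52.1 and 47.4 scaled TPM in the 4 groups in the order used above, and Slc7a2 had 37.8, 50.7, 106 and 92.2. These are descriptions over libraries that share depth and composition effects.

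For the other members the closest genes were Atp5f1 for Mdh1 (r = 0.992), Lgals9 for Got2 (0.984), Mir6978 for Glud1 (0.966), Dlst for Gpt2 (0.867) and Slc38a3 for Gpt (0.847), each over 16 libraries. Among the 6 themselves, Got2 moved with the cytosolic member Mdh1 (r = 0.853) and with Glud1 (0.852), which is mitochondrial like Got2. Within groups these r were 0.896 and 0.862. Vehicle SP mouse 4 had the lowest value of the 16 libraries for both Got2 and Mdh1, and how far it carried their r was not tested. Got1 had r of 0.578 with Mdh1, 0.320 with Got2 and 0.0681 with Glud1. Gpt had r of -0.277 with Got2.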

How the data were processed

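The authors sequenced liver RNA of 16 mice, aligned the reads to GRCm38 with HISAT2 (2.0.5), counted them over genes with featureCounts, and deposited TPM, in which each gene's reads are divided by exon length and scaled to a fixed library total. The gene annotation and counting options bear on genes that overlap, such as Got2 and Gm45760. Depth was recovered from the deposited TPM, since of 138931 low values 98.7% came within 0.02 of whole reads.

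Here TPM was divided by a median-of-ratios factor for each library (0.683 to 1.54), and log2(scaled TPM + 1) was fitted with limma 3.58.1 (trend, 1 mean per group, 16 libraries) over the 11839 genes that averaged 1 TPM or more. Fold changes are on that scale. The adjustment was Benjamini-Hochberg over all genes tested, and an adjusted p under 0.05 passed. The fit was tested on simulated data. Isoenzyme ratios (pseudocount 0.1) were tested by exact permutation (two-sided), adjusted over 15 tests. Leaving out each library, other scalings, filters and pseudocounts, fits on the compared groups alone, a block for mouse number, array quality weights, voom on recovered reads and a GC covariate were tried, the last 2 chosen after seeing the data.

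The members and lists were chosen with earlier results of these data known. Named were all members and, of each list and comparison, up to 4 passing genes with the smallest limma p. The 3 genes most like Got1, the 1 most like each other member and Gm45760, which overlaps Got2, were also named. Wdpcp and Gm22990, which overlap Mdh1, averaged 0.282 and 0.384 TPM. The pseudogenes Got2-ps1 and Glud-ps averaged 0.533 and 0.509 TPM. Mdh2, the shuttle carriers and the marker lists were named for their role. The check of pairing, by correlation between groups, gave r from -0.57 to 0.53 (median -0.028) for same-numbered mice. Mice of other numbers gave -0.55 to 0.60 (median 0.016), so the mouse numbers were taken as names. The adipocyte, cholangiocyte, exocrine pancreas, Kupffer cell and blood marker lists summed to 0.86 to 2.38, 0.486 to 2.09, 4.63 to 13.2, 24.7 to 94.0 and 605 to 2106 deposited TPM over the libraries.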

Additional observations from a re-analysis of the deposited data

Results flagged for a closer look

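In 5 of 36 sets of 4 mice examined (6 members and 3 ratios in 4 groups), 1 mouse stood apart from the other 3 by Dixon's test, where chance marks about 1 set in 20. Got1 was lowest in G108 SP mouse 1, at 136 scaled TPM, and highest in G108 HP mouse 4, at 229. Gpt was also highest in G108 HP mouse 4, at 134. Glud1 was lowest in vehicle HP mouse 1, at 123, and Mdh1 was lowest in vehicle SP mouse 4, at 54.2. With either Got1 mouse left out, Got1 stayed past the threshold for G108 on SP.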

How the results depend on the processing

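Got1 passed for G108 on SP under each of the 26 alternatives run (log2 difference 2.04 to 3.01, limma adjusted p 2.09e-05 to 0.0216), and over the alternatives that leave out 1 mouse the value was 2.04 to 2.55. With the mouse number as a replicate block, it had an adjusted p of 0.0043, the count of members passing on SP stayed at 1, and no other call changed. The Got1/Got2 ratio had a sign-flip adjusted p of 0.3 for G108 on either diet. With 4 pairs of mice no outcome of the sign-flip test could fall under 0.05, so it cannot decide whether the ratio holds with the block. The number of members passing on SP was 6 on TPM as deposited (77.6% of all genes) and 2 with the GC covariate (14.6%), where Mdh1 joined. On HP it was 1 with array quality weights (6.72% of all genes), by Got1 at 0.85 (adjusted p = 0.0162). Leaving out 1 mouse gave 1 to 1 members on SP, 0 to 1 on HP and 0 to 1 for diet with vehicle. Without vehicle SP mouse 1, Got1 passed on HP (adjusted p = 0.0440, against 0.0440 to 0.507 over the mice left out) and for diet with vehicle (1.504, adjusted p = 0.0461, range of the value 0.991 to 1.504).

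Of 774 member values under alternatives, 725 kept direction and side, 9 passed newly, none was lost and 40 reversed in sign, none of which passed. On TPM as deposited these were Gpt2 for diet with G108 (-0.26), Gpt for diet with vehicle (0.18), and the interaction of Gpt (-0.64) and Gpt2 (-0.62). Without mitochondrial and Mup genes in the scaling they were Mdh1 on HP (-0.032) and the interaction of Gpt (-0.14) and Gpt2 (-0.12). With array weights they were, for diet with G108, Gpt (0.0205) and Mdh1 (0.0747), for diet with vehicle Gpt (0.14), and for the interaction Gpt (-0.12) and Gpt2 (-0.16). With the GC covariate they were Gpt for diet with G108 (0.0358) and with vehicle (0.0254). Over mice left out, Gpt ran from -0.10 to 0.0433 for diet with G108, -0.11 to 0.0931 for diet with vehicle and -0.11 to 0.0911 for the interaction, Gpt2 from -0.0324 to 0.21 on HP and -0.13 to 0.11 for the interaction, and Mdh1 from -0.051 to 0.19 on HP, -0.20 to 0.0413 for diet with G108 and -0.0388 to 0.45 for diet with vehicle. The ratios that changed sign over mice left out were Got1/Got2 for diet with G108 (-0.0279 to 0.16), Gpt/Gpt2 on SP (-0.051 to 0.20), on HP (-0.0105 to 0.14) and for the interaction (-0.14 to 0.11), and Mdh1/Mdh2 on SP (-0.0701 to 0.17) and for diet with vehicle (-0.0463 to 0.19). The cause of these changes was not tested.

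With 4 mice a group, the smallest exact p of a ratio, 0.0286, did not pass after adjustment over 15 tests. The spread between mice exceeded the counting error of all 6 genes. Of all genes tested, 322 passed on SP, against 107 with the compared groups alone, 213 with the block, 1729 with the GC covariate, 1821 with array weights and 9185 as deposited, and 145 on HP, against 50, 35, 112, 795 and 132 in that order, and 43 with no filter and 77 with a mean TPM of at least 5. Array weights also gave 297 genes for diet with G108, none of them a member. These totals ranged from 152 to 471 on SP and 17 to 209 on HP over mice left out.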
